A study of Drosera capensis with 12 samples.

Results

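Traps of the Cape sundew (Drosera capensis) that had closed on prey were set directly against traps that had closed on a chemical signal, as 2 end states of the same movement. The compared libraries were 3 of leaf traps closed after living fruit flies were fed to the leaf (fly-closed) and 3 of leaf traps closed after glutathione (GSH) was applied to the petiole at 100 mM (GSH-closed). Each experiment had its own 3 mock libraries, of traps labelled as not stimulated (fly mock) or as without small-molecule treatment (GSH mock). These show the background difference between the experiments, define the set of features compared, enter the shared estimate of spread and serve as the baseline of each response. The sample titles gave the groups; a second label names GSH as the agent of the fly-closed libraries too, against their titles and library codes, and the titles were followed. No library of either experiment carries a genetic change in its labels, and the labels give neither the time after the stimulus nor whether each library came from a plant of its own, so p-values measure the spread between libraries, which may be technical.

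The deposited table lists 397048 features of a de novo transcript assembly under assembly IDs that the files do not pair with gene names. The comparison was made on the 150717 features above 0 in at least 1 of the 6 mock libraries, called mock-detected features here. Of these, 44458 were abundant enough to be tested, that is at 0.526 TPM (each value per 1e+06 of its library's total; whether it is corrected for feature length is not known) or more in at least 3 of the 12 libraries. The column totals lay between 17708300 and 20453100, but as the table holds rescaled values, this is no measure of read depth.

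Sundews catch insects with mucilage-tipped tentacles and then bend tentacles and leaf blade around the prey, after which the leaf secretes digestive enzymes and takes up nutrients. In carnivorous plants of this order, prey capture is known to set off electrical and calcium signals and jasmonate signalling, which controls much of the digestive programme. Glutathione is a small thiol tripeptide that buffers the redox state of the cell and is also known as an external signal perceived through glutamate receptor-like channels in Arabidopsis. Because the features carry no gene names, none of these pathways could be followed here, and response classes take their place.

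The fly-closed libraries differed from the GSH-closed libraries in many more features than their mocks differed from each other. Between the closed groups, 12586 of the 44458 tested features were called (28.3%), 5935 higher in fly-closed traps (13.3%) and 6651 lower in fly-closed traps (15.0%), taking a Benjamini-Hochberg adjusted p under 0.05 in limma as the threshold. The same fit called 4332 features between the mocks (9.74%), 1714 higher (3.86%) and 2618 lower (5.89%) in the fly mock. The 3 libraries of each closed group did not overlap in 40.7% of tested features, and those of the mocks in 24.6%. Differences are on the log2(TPM + 1) scale, which understates those of low features, and a positive value means a higher level in the fly experiment. The median size of the difference over all tested features, whatever its sign, was 0.42 between closed groups and 0.26 between mocks. The stimulus, the place it was applied and the experiment change together between the closed groups and cannot be told apart. In bulk tissue, fewer cells of a type and less RNA per cell cannot be told apart.

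The features lower in fly-closed traps differed by more than those higher in them. Among features higher in fly-closed traps the median difference was 0.76, and 1767 of 5935 (29.8%) differed by at least 2-fold. Among features lower in fly-closed traps the median was -1.02, and 3377 of 6651 (50.8%) did so. At 4-fold or more the counts were 259 higher and 1216 lower, and at 8-fold or more 52 higher and 404 lower. Between the mocks, 49 features were higher and 110 lower in the fly mock by 4-fold or more.

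The split between directions depended on scaling, the medians and the counts at 4-fold less so. With TPM left unscaled between libraries, 8515 features were called higher and 4784 lower in fly-closed traps, 64.0% higher in place of 47.2%, as the median difference of all tested features moved by 0.14. No feature was called in opposite directions by these scalings: 5915 were called higher and 4784 lower in both. Without scaling the medians were 0.77 and -1.09, the counts at 4-fold or more 321 and 936, and the counts at 2-fold or more 2643 and 2649, so that the excess of lower features at 2-fold was not seen.

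**Figure D1:**
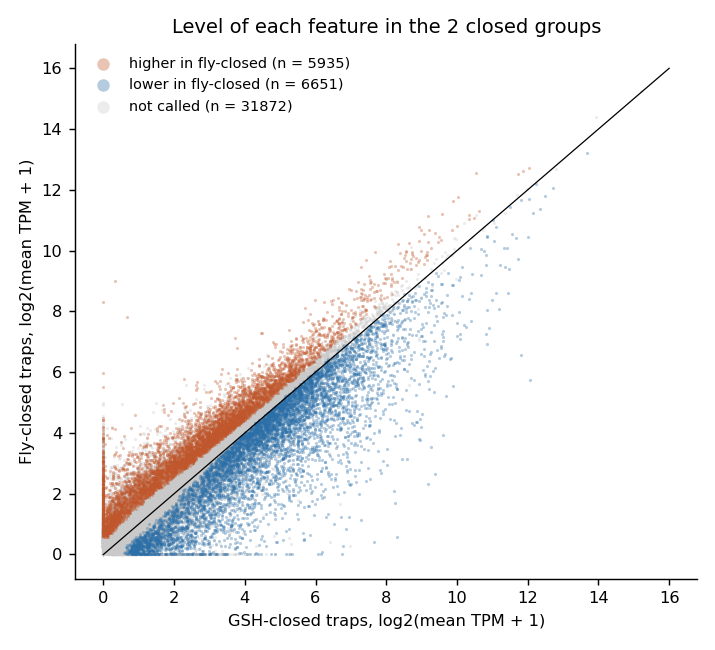
Mean level of each tested mock-detected feature in the 3 fly-closed libraries (vertical axis, log2 of mean TPM + 1) against the 3 GSH-closed libraries (horizontal axis, same scale), with the line of equal level. Orange points are the 5935 features called higher and blue points the 6651 called lower in fly-closed traps; the blue points reach farther from the line than the orange ones.

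In terms of RNA, the features lower in fly-closed traps took up nearly 50% of TPM in GSH-closed traps. The 6651 features called lower held 21.9%, 24.0% and 24.7% of all TPM in the fly-closed libraries, against 49.5%, 49.9% and 49.1% in the GSH-closed libraries. In the mocks they held 21.3% ± 0.278 (fly mock) and 31.0% ± 0.923 (GSH mock; SD, n = 3 each). The 5935 features called higher held 24.0%, 26.4% and 26.8% in the fly-closed libraries, against 12.5%, 12.4% and 12.5% in the GSH-closed libraries. Their mock shares were 28.2% ± 0.779 in the fly mock and 22.3% ± 0.226 in the GSH mock (SD, n = 3 each). In both sets the mean share of fly-closed traps lay nearer to that of their own mock than did the mean share of GSH-closed traps. The sets were chosen by the closed libraries, so the gaps between closed groups are a description with no test.

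**Figure D2:**
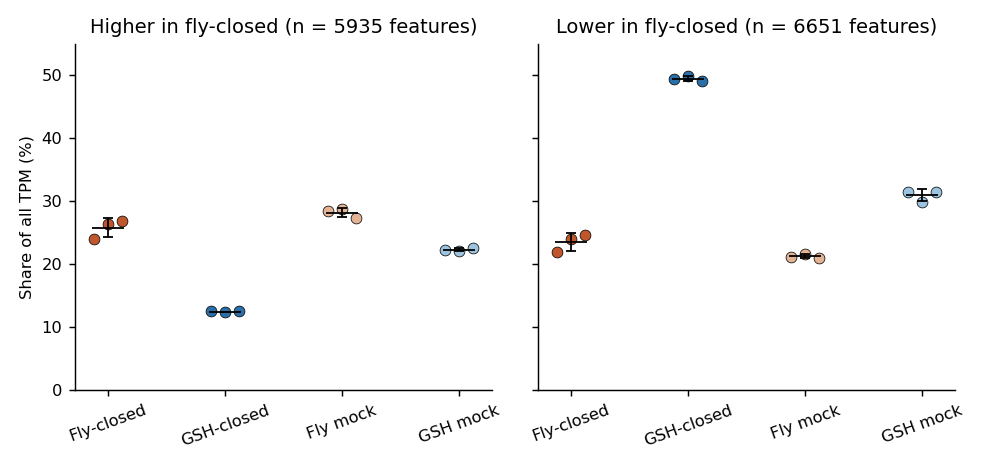
Share of all TPM (%, vertical axis) held by the features called higher (left) and lower (right) in fly-closed against GSH-closed traps, 1 point per library, with the mean and SD of the 3 libraries of a group. The GSH-closed libraries stand lowest on the left, at 12.4% on average, and highest on the right, at 49.5%, while fly-closed libraries stand near the fly mock.

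The TPM gap did not rest on a single feature, but a small part of the called features made up 50% of it. Of the 5935 features higher in fly-closed traps, 129 made up 50% of the summed TPM difference and the first 10 made up 16.8%. Of the features lower in fly-closed traps, 6581 had a lower mean TPM there without scaling, of which 191 made up 50% of the difference and the first 10 made up 10.9%. The largest single feature contributed 3.39% of the difference among higher features and 1.61% among lower features.

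The direct difference is taken between the closed libraries, with the mocks entering its estimate of spread; the levels of the mocks showed which closed group lay apart. Among the 5935 features higher in fly-closed traps, all 3 GSH-closed libraries lay below the other 9 libraries in 3910 (65.9%), whereas all 3 fly-closed libraries lay above the other 9 in 462 (7.78%). Among the 6651 features lower in fly-closed traps, the GSH-closed libraries lay above the other 9 in 5198 (78.2%) and the fly-closed libraries lay below the other 9 in 321 (4.83%). Over all tested features, the GSH-closed libraries lay below the other 9 in 10.8% and above them in 13.1%, and the fly-closed libraries lay above in 1.34% and below in 0.900%. The called features were chosen for a gap between the closed groups, so shares above these are built in. Which closed group lies apart is not set by the call, but the limit to mock-detected features bears on it. That limit left out 525 tested features seen in fly-closed libraries alone and 66 seen in GSH-closed libraries alone. Such features lie above the other 9 libraries by definition. Without scaling, the GSH-closed libraries stood apart in 81.3% of the higher and 75.4% of the lower features, and the fly-closed libraries in 4.76% and 4.54%. With calls from a fit of the 6 closed libraries alone, the shares were 66.8% and 79.1% for GSH-closed traps and 7.97% and 4.72% for fly-closed traps.

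Whole libraries of the closed groups were less alike than those of the mocks. Across the tested features, Pearson's r on log2(TPM + 1) ranged from 0.850 to 0.859 over the 9 pairs of a fly-closed and a GSH-closed library, and from 0.899 to 0.912 over the 9 pairs of a fly mock and a GSH mock library. Within fly-closed traps r was 0.917 to 0.922, and within GSH-closed traps 0.916 to 0.922. Fly-closed libraries were about as close to the GSH mock (0.889 to 0.899) as to their own mock (0.894 to 0.906). GSH-closed libraries were less like their own mock (0.836 to 0.848) and the fly mock (0.807 to 0.820) than like fly-closed libraries. These r values are across features, which are not independent replicates, and only describe the libraries. The median SD of a feature within a group was 0.22 on the log2 scale in fly-closed and in GSH-closed traps alike.

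Each closed group can also be set beside its own mock; these contrasts share the closed libraries with the direct comparison, so their values are given side by side only. For the features higher in fly-closed traps, the median change from the mock was -0.03 after flies and -0.51 after GSH. By those contrasts, 205 of the 5935 passed as higher and 113 as lower after flies, and 66 passed as higher and 3408 as lower after GSH. For the features lower in fly-closed traps, the median change was 0.10 after flies and 0.98 after GSH, with 1192 of 6651 passing as higher and 47 as lower after flies, and 4903 as higher and 112 as lower after GSH. Over all 44458 tested features, 1676 passed as higher and 286 as lower after flies (4.41% together), and 6280 as higher and 5351 as lower after GSH (26.2% together). Library values were divided by factors of 0.836 to 0.868 in GSH-closed and 1.03 to 1.22 in GSH mock libraries. The factors were 0.950 to 1.04 in fly-closed and 1.01 to 1.07 in fly mock libraries. Scaling therefore moves the changes after GSH more than those after flies. How these medians and counts change without scaling was not examined.

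Part of the difference between closed traps was already present between the mocks. These differences are taken from separate libraries, but their calls share the spread estimated over all 12. Of the 12586 features called between closed groups, 3058 (24.3%) were called the same way between mocks, 215 (1.71%) the opposite way, and 9313 (74.0%) were not called between mocks; the rate of mock calls over all tested features was 9.74%. Starting from the mocks, 70.6% of the 4332 features that differed there were called the same way in closed traps, 4.96% the opposite way, and 24.4% were not called. Features higher in the fly mock had a median difference of 0.64 between mocks and 0.65 between closed groups. Features lower in the fly mock had medians of -0.58 and -0.60. With each contrast fitted on its own 6 libraries, 2418 features were called between mocks, of which 72.0% were called the same way in closed traps and 2.85% the opposite way, and 15.7% of direct calls were called the same way between mocks. Without scaling, 50.5% of mock calls were called the same way in closed traps. Across all tested features the closed and mock differences had a Pearson's r and a Spearman's rho of 0.30 each.

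In steps of the size of the mock difference, whether called or not, the rate of calls between closed groups hardly changed. Where the mocks differed by less than 0.1 on the log2 scale, 2625 of 9625 features (27.3%) were called between closed groups, 1297 higher and 1328 lower in fly-closed traps. Where the mocks differed by 1 or more, 785 of 3036 (25.9%) were called, and in the 3 steps between, the rate was 27.8% to 30.4%. What did change was the direction and the size. The median size of the closed difference over all features of a step, whatever its sign, was 0.33 in the lowest step and 0.95 in the highest. Of the features called, 57.6% had the sign of the mock difference in the lowest step and 92.1% in the highest. Of the 3036 features in the highest step, 845 were called between the mocks. Features called between the mocks were called more often between closed groups than the 28.3% of all tested features. Of them, 70.6% were called the same way and 4.96% the opposite way, with the spread shared by both calls.

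**Figure D3:**
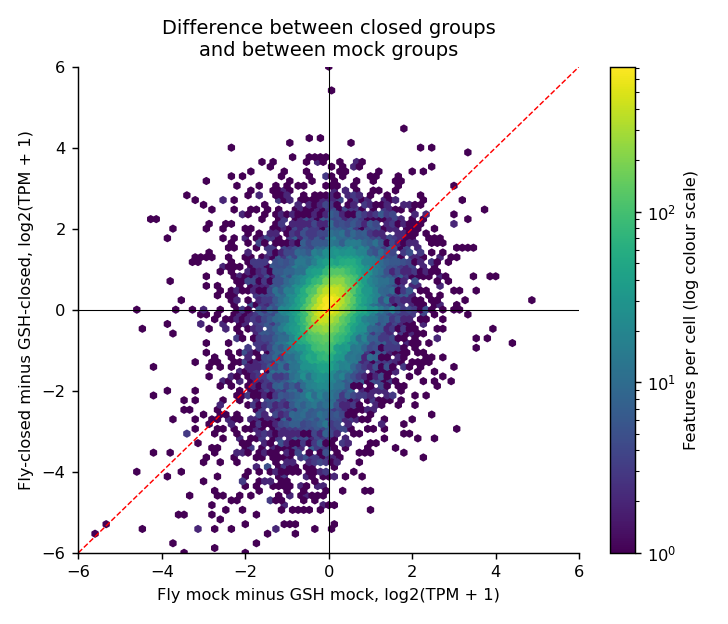
Difference between fly-closed and GSH-closed traps (vertical axis) against the difference between fly mock and GSH mock (horizontal axis), both on log2(TPM + 1), for the tested features; colour gives the number of features per cell on a log scale, the dashed line marks equal differences, and 19 features lie beyond the plotted range. The cloud is taller than it is wide and extends farthest downwards. Of the 141 features called at least 16-fold lower in fly-closed traps, 79 (56.0%) were also called lower in the fly mock.

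A direct difference that is larger or smaller than the mock difference is the difference between the responses to flies and to GSH, which the same fit tested for each feature. It called 6343 features (14.3%), the fly response above the GSH response for 2506 (5.64%) and below it for 3837 (8.63%). Among features lower in fly-closed traps, 3565 (53.6%) were called with the fly response below the GSH response. Among features higher in fly-closed traps, 2045 (34.5%) were called with the fly response above the GSH response. The response difference is the direct minus the mock difference, so choosing features by their direct difference favours both shares. With no scaling the test called 10017 features, 7378 above and 2639 below, so its direction split is not stable to scaling.

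Both tests together sort the directly different features into classes. The largest class lower in fly-closed traps had 2646 features (39.8%) with no call between mocks and a called difference in response; its median difference was -1.29 between closed groups and -0.03 between mocks. These features held 9.89% of TPM in fly-closed and 20.1% in GSH-closed traps, against 8.69% in the fly mock and 9.57% in the GSH mock. A further 804 features (12.1%) were lower in the fly mock as well and were called for the response too. They had the largest median difference of any class, -2.03, and held 3.11% of TPM in fly-closed traps and 12.9% in GSH-closed traps, against 2.55% in the fly mock and 5.23% in the GSH mock. In 1009 features (15.2%) the mocks differed and the responses were not called; the medians were -0.59 between closed groups and -0.56 between mocks. For 2042 features (30.7%) neither the mocks nor the responses were called, so these data do not show whether their mocks or their responses differ.

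Among features higher in fly-closed traps under the trimmed-mean scaling, the class with neither call was the largest, with 2974 of 5935 features (50.1%) and a median difference of 0.70. A called response without a call between mocks was seen for 1651 features (27.8%), with medians of 0.83 between closed groups and -0.01 between mocks. This class held 4.77% of TPM in fly-closed and 2.37% in GSH-closed traps, against 5.05% in the fly mock and 5.46% in the GSH mock. Its median change from the mock was 0.00 after flies and -0.75 after GSH. Another 883 features (14.9%) differed between mocks with no call for the response. They were abundant, with 11.0% of TPM in fly-closed and 5.40% in GSH-closed traps, against 12.3% in the fly mock and 8.01% in the GSH mock. Without scaling, a called response with no call between mocks was seen for 52.1% of the features higher and 35.4% of those lower in fly-closed traps, and neither call for 31.6% and 26.3%, so which of these classes is the largest among higher features depends on the scaling.

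Abundant features were called more often, between closed groups and between mocks. Of the 338 features with a mean log2(TPM + 1) over 8, 35.2% were higher and 37.3% lower in fly-closed traps, and 31.1% were higher and 24.9% lower in the fly mock. At a mean between 6 and 8, 24.2% were higher and 40.4% lower in fly-closed traps, against mock rates of 16.4% and 29.7%. At a mean of up to 1, the rates were 4.48% and 5.06% between closed groups and 1.03% and 0.284% between mocks. Adding 1 makes low features harder to call, so these rates cannot be compared as response rates between abundances.

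**Figure D4:**
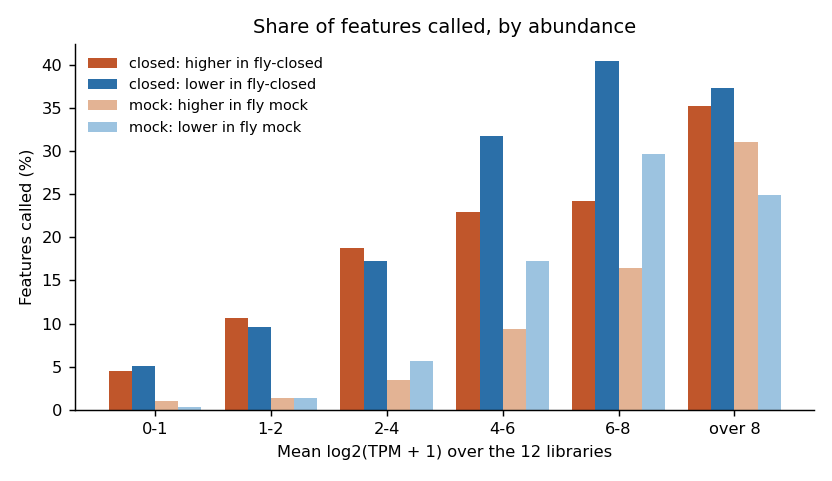
Percentage of tested features called (vertical axis) by their mean log2(TPM + 1) over the 12 libraries (horizontal axis), between fly-closed and GSH-closed traps (dark bars) and between fly mock and GSH mock (pale bars). Rates between closed groups exceed those between mocks at each abundance and in each direction; in the most abundant features, 35.2% were higher in fly-closed traps and 31.1% in the fly mock.

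The most abundant features of the closed groups overlapped in part. Of the 100 mock-detected features with the highest mean TPM in fly-closed traps, 57 were also among the first 100 in GSH-closed traps, while the first 100 of the mocks shared 76. Of the first 1000, the closed groups shared 651 and the mocks 839. Within the first 100 of fly-closed traps, 50 were called higher and 24 lower in fly-closed than in GSH-closed traps. Within the first 100 of GSH-closed traps, 12 were called higher and 66 lower in fly-closed traps. A list of the highest features of a group favours features that are high in it, so the opposite leaning of these counts is built in.

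A small set of mock-detected features reached 10 TPM in either closed group and stayed near 0 in the other. Features at 0 in all mocks are not counted here, which bears unequally on the closed groups. Of those tested, 525 were seen in fly-closed libraries alone and 66 in GSH-closed libraries alone. In 10 features all 3 fly-closed libraries reached 10 TPM or more while all 3 GSH-closed libraries stayed under 1 TPM, and in 42 features it was the reverse. All of them passed the direct test, by a choice that favours it. The 42 GSH-closed features had a median of 0.175, 0.175 and 0.215 TPM in the fly-closed libraries, against 20.6, 21.1 and 19.7 TPM in the GSH-closed libraries. Of the 42, 14 (33.3%) were also called lower in the fly mock, against 5.89% of all tested features, and 38 (90.5%) were called with the fly response below the GSH response, against 8.63%. In 13 of them all mocks were under 1 TPM. The 10 fly-closed features had medians of 18.3, 22.8 and 20.6 TPM in the fly-closed libraries and were listed at 0 in all 3 GSH-closed libraries in 9 of 10 cases. The fly mock had medians of 12.5, 5.68 and 11.6 TPM, and the GSH mock of 7.04, 3.59 and 0 TPM, and 2 of the 10 were under 1 TPM in all mocks. Of these 10, 1 was also called higher in the fly mock, against 3.86% of all tested features. For 6 of them the fly response was called above the GSH response, against 5.64%. Choosing features near 0 in 1 closed group favours response calls in both sets.

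The 141 features called at least 16-fold lower in fly-closed traps had a median mean level of 3.81 TPM there and 108 TPM in GSH-closed traps, against 1.52 TPM in the fly mock and 6.01 TPM in the GSH mock. Together they held 0.120% of TPM in fly-closed and 3.41% in GSH-closed traps. Of these, 118 (83.7%) were called with the fly response below the GSH response, against 8.63% of all tested features, and 79 (56.0%) were also called lower in the fly mock, against 5.89%. The choice by a large direct difference favours both. In all, 13 were listed at 0 in all fly-closed libraries, where the fitted fold depends on the value of 1 that was added. Only 11 features were called at least 16-fold higher in fly-closed traps, and 9 of them were listed at 0 in all GSH-closed libraries.

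Sister features of an assembly cluster, which share the first number of their ID and may share reads, did not always move together. Of 1628 clusters with at least 2 called features, 400 had all of them higher and 577 all of them lower in fly-closed traps, and 651 (40.0%) held both directions. Over all called features 47.2% were higher, so unrelated features would often differ in direction too. Whether sisters move together more than unrelated features was not tested.

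Individual features show these classes library by library. TRINITY_DN7747_c0_g1 stood at 53.9, 55.1 and 53.2 TPM in fly-closed traps, against 4.82, 2.98 and 3.73 TPM in GSH-closed traps. The mocks held similar levels, 94.6 ± 5.28 TPM in the fly mock and 108 ± 14.9 TPM in the GSH mock (SD, n = 3 each). The closed groups were far apart, and both lay below all mock libraries. In limma the direct log2 difference was 3.33 ± 0.17 (SE, adjusted p = 1.63e-07) and that between mocks -0.04 ± 0.17 (adjusted p = 0.961).

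TRINITY_DN398494_c0_g1 already differed between the mocks. It had 132, 144 and 142 TPM in fly-closed traps, against 11.5, 11.8 and 12.9 TPM in GSH-closed traps. Its mock levels were 167, 177 and 193 TPM for flies and 51.6, 65.8 and 52.4 TPM for GSH, so the groups did not overlap in either state and the gap was wider after closure. By limma the direct difference was 3.21 ± 0.13 (SE, adjusted p = 3.70e-08) and the mock difference 1.79 ± 0.13 (adjusted p = 2.00e-05).

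TRINITY_DN1933_c0_g1 was near absent outside GSH-closed traps. It was listed at 0.240, 0.640 and 0.300 TPM in fly-closed traps, against 42.8, 46.5 and 59.8 TPM in GSH-closed traps. All 6 mock libraries lay between 0.320 and 2.00 TPM, in the range of the fly-closed ones or above it. The direct difference by limma was -5.41 ± 0.23 (SE, adjusted p = 5.14e-08), and that between mocks was -0.31 ± 0.23 (adjusted p = 0.545). It has 1 tested sister feature in its assembly cluster.

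TRINITY_DN25817_c0_g1 had the largest gap of the named features. It stood at 0.140, 0.150 and 15.7 TPM in fly-closed traps, against 700, 625 and 675 TPM in GSH-closed traps. The fly mock libraries had 6.04, 0.690 and 0 TPM, those of the GSH mock 17.6, 42.2 and 42.2 TPM. Fly-closed replicate 3 lay far above the other 2 fly-closed libraries, yet the closed groups did not overlap. The direct difference by limma was -8.15 ± 1.00 (SE, adjusted p = 0.000120). Without fly-closed replicate 3 it was -9.41, and the difference between the responses, not called with all libraries (-4.45 ± 1.41, adjusted p = 0.0624), was then called (-5.72, adjusted p = 0.00365). Its mock difference, -3.69 ± 1.00 (limma adjusted p = 0.0454), did not pass in 12 of 20 alternatives. Over all 20, the limma adjusted p lay between 0.00562 and 0.181.

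**Figure D5:**
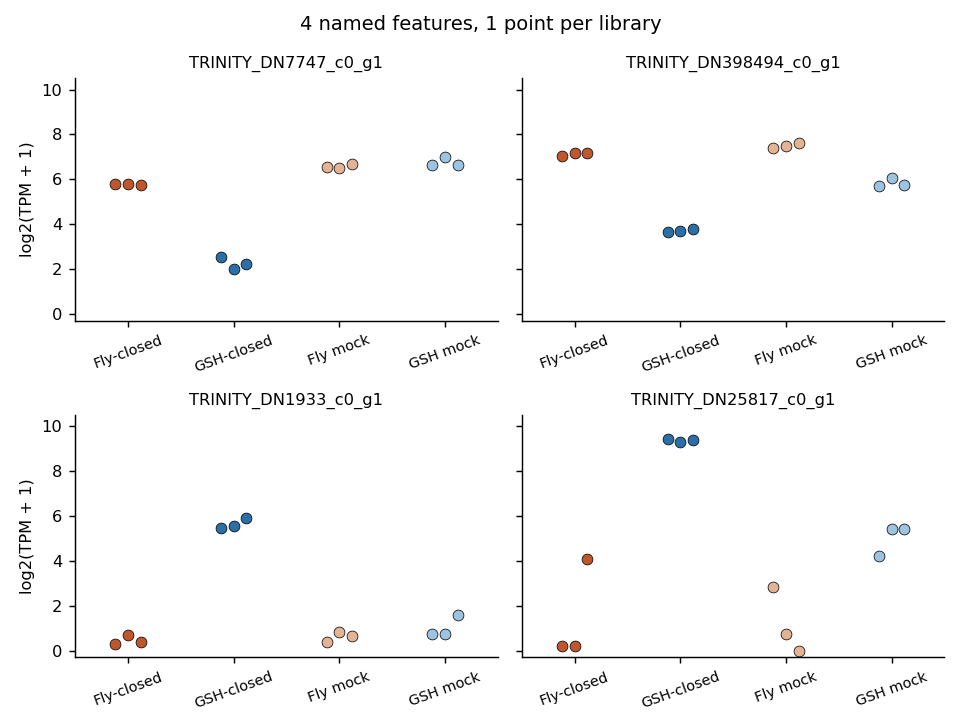
Level of the 4 named features in the 12 libraries (vertical axis, log2 of TPM + 1), 1 point per library, by group. The upper features are higher in fly-closed than in GSH-closed traps and the lower ones are lower; in each pair the left feature was not called between the mocks and the right one was.

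The fly-closed libraries held more mock-detected features above 0, and more RNA outside them. Of the 150717 mock-detected features, 59107, 60503 and 58712 were above 0 in the fly-closed libraries, against 51677, 53658 and 52668 in the GSH-closed libraries, a mean gap of 6773. The mock libraries, which define the set, had 75466 ± 961 in the fly mock and 60796 ± 945 in the GSH mock (SD, n = 3 each), a wider gap of 14670. Features at 0 in all 6 mocks held 17.8%, 11.0% and 8.89% of TPM in the fly-closed libraries, against 4.27%, 4.59% and 4.68% in the GSH-closed libraries. The closed groups did not overlap in either measure; a two-sided exact permutation test gave p = 0.1 for each, the smallest that 3 against 3 libraries allow. The features unique to a library made up 11.7% ± 4.59 of TPM in fly-closed and 4.05% ± 0.186 in GSH-closed traps (SD, n = 3 each). In closed libraries such features are by definition at 0 in all mocks, and they held most of the TPM outside the mock-detected set. Unique features made up 11.0% ± 1.41 in the fly mock and 3.24% ± 1.55 in the GSH mock (SD, n = 3 each), so a gap of this kind was also present between the mocks. Its part in the calls was not tested. With TPM recomputed over mock-detected features alone, 12438 features were called between closed groups, 5813 higher and 6625 lower in fly-closed traps.

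Outside the mock-detected set, 1045 further features were tested in the same fit, of which 538 were higher and 174 lower in fly-closed traps. The fly-closed libraries alone showed 525 of them, and the GSH-closed libraries alone showed 66. A feature tested while at 0 in the other 9 libraries must be present in all 3 libraries of its group, so that all of them passed follows largely from the filter.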

How the data were processed

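RNA was sequenced from leaf traps in 12 libraries of 4 groups. The tools named, without their order, are RSEM, DESeq2 version 1.16.1, Trimmomatic and cutadapt, per the submitters' processing notes. The values deposited by the authors are a rescaled signal and no counts: each value between 0 and 60, in all libraries (100%), was a multiple of its column total over 1e+08, within 0.0051. The sources used here do not say whether they were corrected for feature length, and reads may be divided between sister features. No count test was therefore used.

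Values were turned into TPM by dividing by the column total and multiplying by 1e+06. Features at 0.526 TPM, a value of 10 at the median sum, in at least 3 libraries were tested: 45503 in all, 44458 of them above 0 in a mock library. Libraries were scaled by an unweighted trimmed mean of log ratios (30% of ratios and 5% of abundances trimmed at each end). A linear model with a term for each group was fitted to log2(TPM + 1) over all 12 libraries (limma version 3.58.1, R version 4.3.3, trend and robust options, residual degrees of freedom 8). P-values were adjusted over all 45503 features. The calculation was tested on simulated data.

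Named features are, per direction, the one with the largest direct difference among those not called between mocks and among those called the same way there, with all closed libraries above 0, closed groups that do not overlap and a closed-library mean of 3 or more on the log2 scale. The steps of mock difference, the top lists, the position of a group against the other 9 libraries and the sister features were added after the data had been seen. The comparison, lists and rules were chosen with earlier results of these data known. No pairing of the libraries by the replicate numbers of the titles was seen (see the closing section).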

Additional observations from a re-analysis of the deposited data

Results flagged for a closer look

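The responses to flies and to GSH differed by the test of the difference itself for 6343 features. It was also called for 3 of the 4 named features, which were chosen for a large direct difference and, in 2 cases, for no call between mocks; as the response difference is the direct minus the mock difference, these calls follow largely from that choice. For TRINITY_DN7747_c0_g1 the fly response minus the GSH response was 3.37 on the log2 scale (limma adjusted p = 6.84e-06): it fell by 0.76 after flies and fell by 4.13 after GSH. For TRINITY_DN398494_c0_g1 it was 1.42 (limma adjusted p = 0.000469). TRINITY_DN1933_c0_g1 had a value of -5.10 (limma adjusted p = 3.88e-06), with a change from the mock of -0.15 ± 0.23 after flies and 4.95 ± 0.23 after GSH (SE).

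Signal also lay outside the mock-detected features, most of it in features found in 1 library only. Features at 0 in all 6 mock libraries held 12.6% ± 4.66 of TPM in fly-closed and 4.51% ± 0.215 in GSH-closed traps (SD, n = 3 each), where the mocks are at 0 by definition. Fly-closed replicate 1 was highest, at 17.8%. Features found in 1 library only held 16.8%, 10.1% and 8.08% of TPM in the fly-closed libraries. In the GSH-closed libraries they held 3.83%, 4.14% and 4.17%. Most of this signal was therefore not shared between the libraries of a group.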

How the results depend on the processing

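Without scaling, 4106 mock calls were lower in the fly mock, and the response difference was called for 10017 features, 7378 of them with the fly response above. Testing every feature, without a filter, took in 150717 mock-detected ones; direct calls were 8037 (3225 higher, 4812 lower), mock calls 2317 (871 higher, 1446 lower) and response calls 3284 (836 above, 2448 below), with p-values adjusted over 227782 features. At a 2-fold minimum, direct calls were 5144 (1767 higher, 3377 lower), mock calls 845 (361 and 484) and response calls 3310 (798 and 2512). A fit of the 6 mock libraries alone made 2418 mock calls (1011 higher, 1407 lower). All other alternatives kept these counts within 1.5 times: the median of ratios, TPM over mock-detected features, features above 0 in all 12 libraries, a pseudocount of 0.1, adjustment over mock-detected features, the replicate block and leaving out a library. Leaving out 1 library gave 10430 to 12881 direct calls, 3119 to 4318 mock calls and 5109 to 6211 response calls. With the replicate number of the sample titles as a block, 11791 direct, 3729 mock and 5636 response calls were made. Same-numbered libraries of different groups had deviations correlated at only -0.026 to 0.015 over 18 pairs. Pairing by these numbers was thus not seen, but 3 libraries a group cannot exclude it. The library codes carry partly different numbers, and pairing by those was not tested. The direct differences of the 4 named features kept their direction and call in each alternative that tested them; TRINITY_DN25817_c0_g1, listed at 0 in a mock library, was not tested under the requirement of all 12 libraries above 0. The mock difference of TRINITY_DN7747_c0_g1, never called, was 0.00 without fly mock replicate 1 and 0.13 without GSH mock replicate 2, within a range of -0.14 to 0.13 without 1 library. The number of features holding 50% of TPM was 1631 ± 372 in fly-closed and 905 ± 41.0 in GSH-closed traps (SD, n = 3; exact permutation p = 0.1), a gap of 726. Over mock-detected features alone the gap was 158, and it was 514 to 863 without 1 library. For the TPM outside mock-detected features the gap of 8.04 percentage points was 5.42 to 9.87 without 1 library, lowest without fly-closed replicate 1. Read depth is unknown, and 3 libraries a group limit what could be called.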
